A study of Mus musculus with 2 samples.

Results

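The cells described here are mesenchymal cells of the neonatal mouse lung that carried the reporter of the Gli1 lineage, set against mesenchymal cells of the same clusters and libraries that did not. They were chosen by the count of 1 feature, the tdTomato reporter transcript with its WPRE and bGH polyA sequence (tdTomWPREbGHpolyA), in cells of the authors' clusters 12, 14, 16, 18, 19, 20, 21, 22 and 23 that held at least 3000 unique molecular identifiers (UMIs, counted single molecules). A cell with 2 or more UMIs of the reporter was taken as labelled, and a cell with 0 as unlabelled. Of the 22963 cells that the authors kept, 8226 met the cluster and depth criteria. The labelled cells numbered 4932 (3463 from the IgG library and 1469 from the 5E1 library), and the unlabelled cells 2485 (1435 and 1050). The 809 cells with exactly 1 reporter UMI lay just outside the choice and the 268 cells with exactly 2 lay just inside it. Around the depth limit, 220 cells of these clusters held up to 200 UMIs fewer than 3000, and 242 held 3000 or up to 200 more.

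Both groups of pups had the genotype Gli1CreERT2/+,R26RtdT/+. Each pup thus carried a tamoxifen-activated Cre recombinase at 1 copy of Gli1 and 1 copy of a tdTomato reporter at the Rosa26 locus, the IgG controls included. Tamoxifen was given subcutaneously on postnatal day 1, followed on day 3 by control IgG or by 5E1, an antibody that binds Hedgehog ligands, and the whole lungs were taken on day 6. Each pool joined the lungs of 3 pups, about 20000 cells per pool were loaded on a droplet instrument, and each condition gave 1 library. The replicate of the comparison of labelled with unlabelled cells is therefore the library (n = 2, with different treatments), and cells of 1 pool are not replicates. Recombination depends on tamoxifen and on Gli1 activity in the days after it, so an unlabelled cell can belong to the lineage and have escaped labelling.

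Hedgehog ligands made by lung epithelium bind Patched receptors on neighbouring mesenchyme, which releases Smoothened and activates the GLI transcription factors. Gli1, Ptch1 and Hhip are transcribed in response. Gli1 amplifies the output, while Patched 1 and the Hedgehog-interacting protein bind ligand and limit it. After birth, mesenchyme that expresses Gli1 includes alveolar myofibroblasts, which lay down elastin in the growing septa, other fibroblasts, and smooth muscle around airways. The study's title links Hedgehog to the platelet-derived growth factor (PDGF) pathway in the forming alveolar septa.

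The identity of the clusters was checked with marker genes in the chosen cells. Clusters 12, 21 and 23 had the highest levels of Tgfbi, at 2454, 4795 and 2105 CPM (UMIs of a gene scaled to 1000000 in all), and Acta2 above 3000, as alveolar myofibroblasts do, and Mki67, a marker of dividing cells, was highest in cluster 12. Pdgfra, another myofibroblast marker, stood at 165 and 177 in clusters 12 and 23, but at 44.8 in cluster 21, below the 88.7 of cluster 18. Cluster 21 also held the smooth muscle genes Cnn1 (548) and Actg2 (1698), against 513 and 1353 in cluster 22. Acta2 was higher still in clusters 16 and 22. The name of cluster 21 thus rests on Tgfbi, which cluster 16 also held, at 1540. Hhip stood at 233 in cluster 21 and 416 in cluster 16, against 34.1 and 17.7 in clusters 12 and 23. Cluster 21 is called alveolar myofibroblasts below with this limit. Clusters 14, 19 and 20 had Mfap4 at 12666 to 17651 CPM and Tcf21 at 968 to 1292, markers of matrix fibroblasts. Cluster 18 had the most Dcn (2462) and Col14a1 (872), markers of adventitial fibroblasts. Cluster 16 had the most Actg2 (7180) and Cnn1 (5694), genes of smooth muscle, and cluster 22 the most elastin transcript Eln (24374) together with Acta2 and Notch3.

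The 13509 IgG and 9454 5E1 cells that the authors kept held medians of 4541 and 4636 UMIs. Labelled cells were a little deeper than unlabelled cells: their medians were 5440 against 5125 UMIs in the IgG library and 5461 against 5112 in the 5E1 library. The share of mitochondrial UMIs was 2.69% against 2.79% and 2.55% against 2.72%. A total of 184 barcodes occurred in both libraries, 17 of them among the labelled and unlabelled cells. The IgG library held 0 Y-linked UMIs in labelled and in unlabelled cells. Xist, the transcript of the inactive X, was found in 99.2% of its labelled and 98.3% of its unlabelled cells. The 5E1 library held cells with Y-linked transcripts and cells with Xist. Within the 5E1 library, 63.6% (95% exact binomial interval 60.0 to 67.0, counting error only) of 752 cells with Xist and no Y-linked UMI were labelled, against 56.3% (52.9 to 59.7) of 847 cells with the reverse. These intervals do not overlap, but they pool clusters that differ in labelled share and in their mix of such cells. Within each of clusters 12, 18, 19, 20, 21, 22 and 23 the intervals overlapped. The labelled share of cells with Xist was 72.8% against 55.0% in cluster 23, but 86.9% against 85.4% in cluster 18 and 53.7% against 53.0% in cluster 20. Only in cluster 21 was it the lower share, at 56.2% against 69.0%. The part of the pups' sex in the results was not tested.

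The reporter count describes how the cells were chosen and is given without a test. In the IgG library the labelled share ran from 63.5% in cluster 19 to 84.8% in the adventitial cluster 18, leaving cluster 22 aside. In the 5E1 library it ran from 47.4% in cluster 20 to 81.0% in cluster 18 over the same fitted clusters. In cluster 22, the smooth muscle cluster rich in Eln, only 19.1% and 18.3% of cells were labelled. B cells, which are not of the mesenchymal lineage, served as the measure of free reporter RNA: 11.0% (6.68 to 16.9) and 7.79% (4.68 to 12.04) of their cells with at least 3000 UMIs held 2 or more reporter UMIs, with a median of 2 UMIs in such cells. The median in labelled cells was 5 and 8 UMIs in cluster 22 and 6 to 14 in the other mesenchymal clusters. After thinning each cell to 3000 UMIs, the labelled share was 76.7% and 74.9% in cluster 18 and 15.3% and 14.8% in cluster 22. Among the 7 fitted clusters, the labelled share of cluster 22 is the one closest to that of the B cells.

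**Figure D1:**
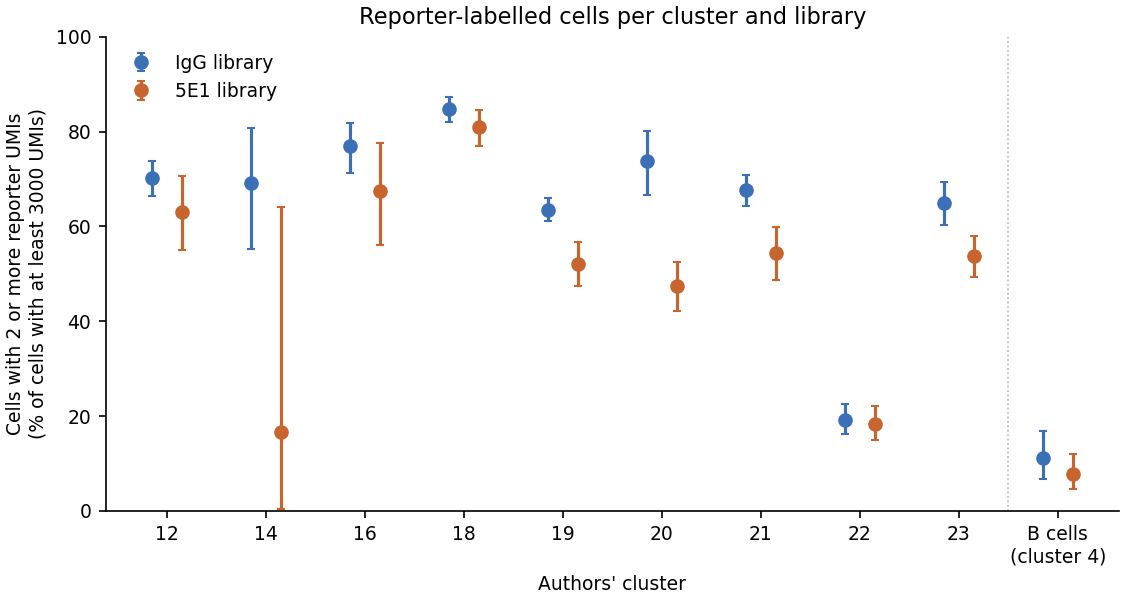
Percent of cells with at least 3000 UMIs that held 2 or more reporter UMIs (y axis), by the authors' cluster (x axis) and library (blue IgG, orange 5E1), with 95% exact binomial intervals that cover counting error only. Cluster 18 is highest at 84.8% and 81.0%, cluster 22 is lowest of the clusters with enough cells at 19.1% and 18.3%, and the B cells lie at 11.0% and 7.79%.

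To compare like with like, cells of the smaller label group in each cluster and library were paired with cells of the other label there. The cells of a pair had nearly the same UMI total, which left 1999 pairs (1173 IgG and 826 5E1). Of the 4932 labelled cells 1999 thus entered, in cluster proportions set by the smaller group. Few genes passed the test. Of 12224 genes tested on the summed UMIs, 72 (0.589%) passed an adjusted p of 0.05 by edgeR's quasi-likelihood test with the library as a block and Benjamini-Hochberg adjustment. In labelled cells 23 genes (0.188%) were higher and 49 (0.401%) were lower, and the median log2 ratio of all genes tested was -0.001. Before adjustment 6.56% of the genes had a p under 0.05. The 4 sums leave 1 residual degree of freedom, and the same design in DESeq2 called 8 genes, all of them genes of blood, nerve sheath or vessel cells such as Mbp, Ppbp and Hba-a1. DESeq2 called no Hedgehog, matrix or cell division gene in the matched cells, and Mfap4 had an adjusted p of 0.15 there.

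Many of the 72 genes came from very few cells. In 39 of them, 1 cell supplied 20% or more of a sum of at least 20 UMIs. The steepest falls were of platelet and Schwann cell genes. Ppbp, a platelet chemokine, counted 2 UMIs in labelled against 947 in unlabelled IgG cells and 1 against 20 in 5E1 cells, and a single cell held 68% of the 947. Mbp, which encodes myelin basic protein, counted 17 against 261 UMIs in the IgG library and 11 against 185 in the 5E1 library, with 86% of the unlabelled IgG sum in 1 cell. Pf4 (log2 ratio -3.50), a platelet chemokine, and Ctla2a (-1.96), a protease inhibitor, had 62% and 55% of their unlabelled IgG sums in 1 cell.

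Lists for Schwann cells and platelets were written after these genes had been seen, so the counts on them are a description: 7 of 8 Schwann cell genes and 8 of 8 platelet genes were called lower in labelled cells. Of all genes 0.401% were called lower and 0.188% higher. The leukocyte list stood at 806 CPM in labelled and 995 in unlabelled IgG cells and at 981 and 701 in 5E1 cells, and none of its 14 genes nor of 12 endothelial genes was called. Over all chosen cells, 16 unlabelled and 5 labelled IgG cells and 13 unlabelled and 2 labelled 5E1 cells were rich in Schwann cell transcripts. The unlabelled ones held 781 of 1000 and 584 of 743 Schwann cell UMIs in the unlabelled cells. Platelet-rich cells numbered 5 unlabelled and 12 labelled in the IgG library and 3 and 2 in the 5E1 library, and the unlabelled ones held 2648 of 2839 and 326 of 446 platelet UMIs. The 4 haemoglobin genes were the reverse case: all 4 were called higher in labelled cells, with 44% of the labelled IgG sum of Hba-a1 and 42% of the labelled 5E1 sum in 1 cell.

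A second set of sums therefore left out every cell rich in transcripts of alveolar type 2 (AT2), airway, endothelial, blood, Schwann cell or platelet lists, where rich means at least 5 UMIs and at least 5 times the library's median for a list. This removed 449 of 3463 labelled and 155 of 1435 unlabelled IgG cells, and 207 of 1469 and 119 of 1050 5E1 cells. In what remained, 56 of 11790 genes (0.475%) passed the same edgeR test, 37 (0.314%) higher and 19 (0.161%) lower in labelled cells, and 23 of the 56 had been called before. In only 5 of the 56 did 1 cell supply 20% or more of a full sum. No platelet, Schwann cell or haemoglobin gene was among the 56. The cells were left out by their counts on these lists, so this absence is no separate result. Only 3 of 10 Schwann cell genes and 3 of 10 platelet genes were still tested. Results below are given with all cells, and with these cells left out where that changed the call.

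Hhip was the 1 gene of the 11 Hedgehog targets on the list that was called, higher in labelled cells, where 0.188% of all genes were called higher. Hhip (chromosome 8, 79965851 to 80058006, GRCm38, minus strand) stood at 165 CPM in labelled and 131 in unlabelled IgG cells, and at 25.9 and 10.6 in 5E1 cells. Its log2 ratio was 0.34 (95% exact counting interval 0.21 to 0.46) in the IgG library and 1.29 (0.81 to 1.79) in the 5E1 library. The fitted log2 ratio was 0.45 ± 0.09 (SE derived from the edgeR test, n = 2 libraries, edgeR adjusted p = 0.011), and 0.43 with the rich cells left out (adjusted p = 1.1e-06). Here and below, the SE uses a spread that edgeR moderates across genes. It is not the spread of the 2 library ratios, which can be wider. The labelled sum was above the unlabelled sum in both libraries. The 2 intervals do not overlap, but the difference between the libraries was not tested.

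Neither Ptch1 nor Gli1 itself passed the test. Ptch1 (chromosome 13), the Hedgehog receptor, stood at 81.9 CPM in labelled and 72.7 in unlabelled IgG cells and at 14.2 and 13.3 in 5E1 cells, a log2 ratio of 0.16 ± 0.09 (edgeR adjusted p = 0.82). Gli1 (chromosome 10) counted 70 against 76 UMIs in the IgG library and 8 against 4 in the 5E1 library, a log2 ratio with a counting interval of -0.60 to 0.37 in the first and -0.89 to 3.19 in the second. At this depth a difference in Gli1 smaller than these bounds was not detectable. Osr1, a transcription factor of lung mesenchyme, had a fitted log2 ratio of -0.08 ± 0.07 (adjusted p = 0.94). Over all 11 targets 5 lay above 0 and 6 below, with a median of -0.004 against -0.001 for all genes.

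None of the 15 co-receptors and transducers of the pathway passed in the matched cells, where 0.589% of all genes did. Their median log2 ratio was 0.10. Gas1, a co-receptor that presents ligand to Patched, counted 583 against 534 UMIs in the IgG library and 892 against 720 in the 5E1 library. Its log2 ratio was 0.24 ± 0.06 (edgeR adjusted p = 0.089), and with the rich cells left out it passed at 0.26 (adjusted p = 0.0086), the 1 member of the list to do so. Smo, which encodes the signal-transducing protein Smoothened, stood at 63.9 and 63.0 CPM in the IgG library and 64.7 and 62.2 in the 5E1 library (log2 ratio 0.04 ± 0.08, adjusted p = 0.99). Of the 7 PDGF genes none passed and 4 lay above 0. Pdgfra, the receptor that marks alveolar myofibroblasts and their precursors, stood at 74.2 and 70.7 CPM in the IgG library and 95.2 and 87.7 in the 5E1 library (log2 ratio 0.09 ± 0.07, adjusted p = 0.90). Pdgfrb stood at 57.9 and 57.0 and at 81.2 and 76.7 (0.05 ± 0.08, adjusted p = 0.97).

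Gt(ROSA)26Sor, the non-coding RNA of the Rosa26 locus (chromosome 6, 113067428 to 113077333, minus strand), counted 193 UMIs in labelled against 109 in unlabelled IgG cells and 151 against 88 in 5E1 cells. These are log2 ratios of 0.83 (0.48 to 1.18) and 0.79 (0.40 to 1.18), higher in labelled cells in both libraries. Because the recombined reporter lies in this gene, its level is not independent of the choice of cells, and it is given as a description although it is among the 72. Thumpd3 (113046225 to 113068273) lies on the other strand and overlaps Gt(ROSA)26Sor only at the ends of the genes. It counted 115 against 126 and 60 against 89 UMIs, with a log2 ratio of -0.30 ± 0.16 (edgeR adjusted p = 0.80).

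Ifitm1, an interferon-induced membrane protein, counted 996 against 860 UMIs in the IgG library and 1393 against 954 in the 5E1 library (log2 ratio 0.40 ± 0.06, edgeR adjusted p = 0.00027). Enpp2, which encodes the lysophospholipase autotaxin, counted 238 against 175 and 367 against 284 (0.41 ± 0.09, adjusted p = 0.025). Scx, the tendon transcription factor scleraxis, counted 520 against 419 and 297 against 211 (0.39 ± 0.08, adjusted p = 0.014). All 3 were higher in labelled cells of both libraries and stayed past the threshold with the rich cells left out. Gsn, which encodes the actin-severing protein gelsolin, rose by 0.21 ± 0.03, and Nbl1, a secreted BMP antagonist, by 0.22 ± 0.05. Rgs2, a brake on G protein signalling, rose by 0.20 ± 0.04, Cebpd, a transcription factor, by 0.23 ± 0.05, and Mustn1, a muscle-associated nuclear protein, by 0.15 ± 0.03. Dpep1, a membrane dipeptidase (0.33 ± 0.07), and Mfap5, a microfibril glycoprotein (0.23 ± 0.04), were called with all cells only, with adjusted p = 0.085 and 0.57 once the rich cells were left out.

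Mfap4, an abundant microfibril-associated protein, was lower in labelled cells. It stood at 5694 against 6363 CPM in the IgG library and 5908 against 6771 in the 5E1 library, a log2 ratio of -0.18 ± 0.01 (edgeR adjusted p = 1.8e-09). Ces1d, a carboxylesterase of lipid metabolism, counted 244 against 335 and 373 against 493 UMIs (-0.41 ± 0.08, adjusted p = 0.0049). These were the 2 of the 16 matrix fibroblast markers to pass, both lower, where 0.401% of all genes were called lower. The list as a whole was not lower: 9 of the 16 lay above 0 and 7 below, with a median of 0.017. In both libraries 6 were higher and 7 lower. Both passed with the rich cells left out, where 0.161% of all genes were called lower. Lum, the collagen-binding proteoglycan lumican of adventitial fibroblasts, counted 97 against 249 UMIs in the IgG library but 108 against 110 in the 5E1 library (-0.77 ± 0.18, adjusted p = 0.037), so the fall was seen in the IgG library alone. Rasgrp2 (-0.41 ± 0.09), Cd9 (-0.33 ± 0.07), Sftpc (-0.19 ± 0.04) and Dbi (-0.18 ± 0.04) were lower only with all cells. Sftpc encodes a surfactant protein of AT2 cells, and the AT2 list as a whole stood at 827 CPM in labelled and 1008 in unlabelled IgG cells and at 452 and 472 in 5E1 cells.

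**Figure D2:**
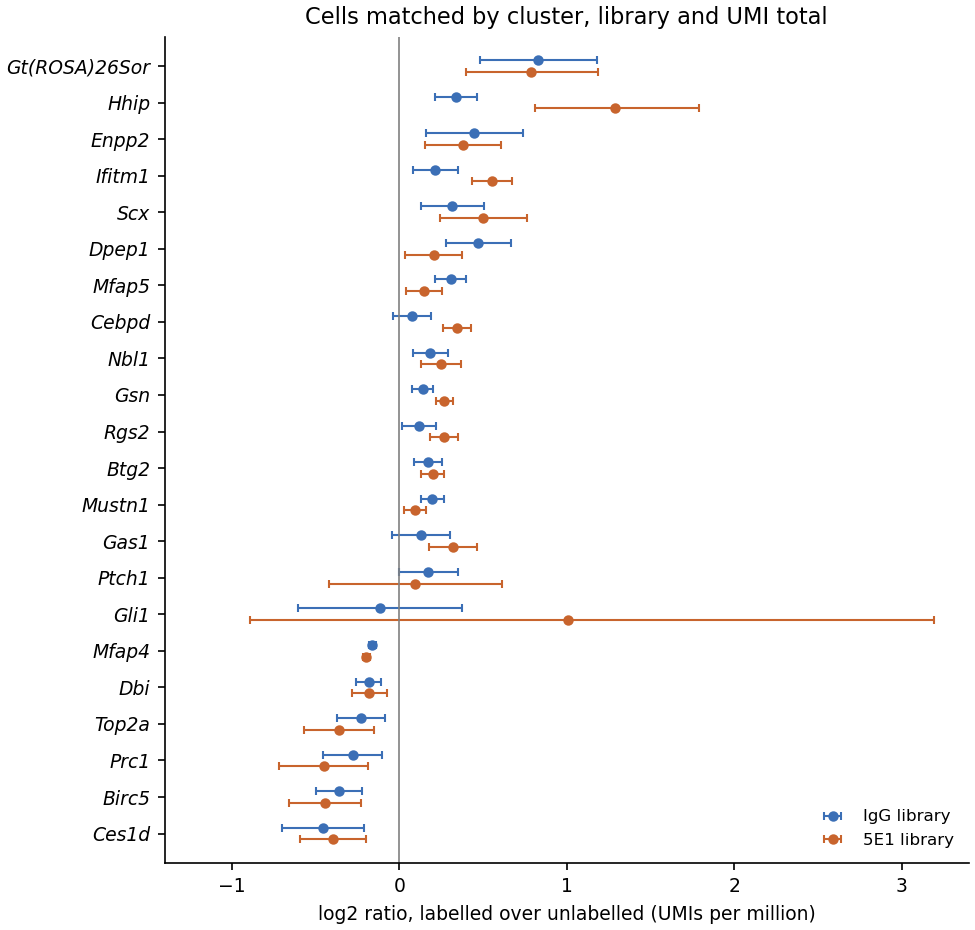
Log2 ratio of CPM in labelled over unlabelled cells (x axis) for named genes (y axis) in cells matched by cluster, library and UMI total, with 95% exact counting intervals (blue IgG, orange 5E1). Gt(ROSA)26Sor, Hhip, Enpp2, Ifitm1 and Scx lie above 0 in both libraries, Ptch1 and Gli1 have intervals that reach 0 in both, and Mfap4 and the division genes lie below 0.

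Genes of G2 and M phase lay lower in labelled cells as a list. All 20 had a log2 ratio below 0 in the matched cells, 19 were lower in both libraries, and the median was -0.25 against -0.001 for all genes. Of the 20, 3 fell by the test (edgeR, where 0.401% of all genes were called lower). Birc5, the mitotic regulator survivin, counted 747 against 961 UMIs in the IgG library and 314 against 430 in the 5E1 library (-0.39 ± 0.06, adjusted p = 0.00072). Prc1, a protein of the cytokinetic spindle, had -0.34 ± 0.08 (adjusted p = 0.029), and Top2a, the topoisomerase of replicating and dividing cells, -0.28 ± 0.06 (adjusted p = 0.036). With the rich cells left out only Birc5 was called (-0.29), 16 of the 20 lay below 0 and the median was -0.09. The sum of the list in the matched cells stood at 1239 CPM in labelled and 1445 in unlabelled cells of the IgG library and at 755 and 924 in the 5E1 library. The share of matched cells with a UMI of the list was 46.3% and 48.3% in the IgG library, but 40.3% in labelled and 36.8% in unlabelled cells of the 5E1 library. Over all chosen cells, without matching, the sum was 1339 and 1346 CPM in the IgG library and was higher in labelled cells of the 5E1 library, at 910 against 825. None of the 20 S phase genes passed, with a median of -0.03.

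Immediate early genes, which are induced within minutes of a stimulus and also by tissue dissociation, leaned the other way. With all cells, 16 of 20 lay above 0, 12 were higher in both libraries and the median was 0.10. Fos, a subunit of AP-1, stood at 737 against 698 CPM in the IgG library and 1660 against 1474 in the 5E1 library (0.13 ± 0.03, edgeR adjusted p = 0.013). Btg2, an inhibitor of proliferation, stood at 352 against 313 and 775 against 674 (0.19 ± 0.03, adjusted p = 0.0028). With all cells 2 of the 20 were called, where 0.188% of all genes were called higher. With the rich cells left out, 8 of the 20 were called, all higher, where 0.314% of all genes were, among them Zfp36, Nr4a1, Nr4a2, Klf2, Klf4 and Hspa1a, and 16 were higher in both libraries. The part of dissociation in this was not tested.

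No gene of the FGF (16 tested), Wnt (20), BMP (18), TGF-beta (15) and IGF (11) lists passed with all cells, and none of 20 mesenchymal transcription factors did. With the rich cells left out, Sfrp1 was lower, and Id2, Igfbp5 and Igfbp6 were higher. Of 20 contractile genes only Mustn1 was called, and of 16 myofibroblast markers Hhip and Enpp2, all higher. With all cells 0.589% of all genes were called, 0.188% of them as higher. With the rich cells left out, Aspn, a matrix proteoglycan of the myofibroblast list, was called higher as well (log2 ratio 0.14). Dcn, the proteoglycan decorin of the adventitial list (-0.27), and Apoe (-0.16) were then called lower.

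Within the adventitial fibroblasts of cluster 18 the differences were larger. The cluster held 665 labelled and 79 unlabelled IgG cells and 358 and 62 5E1 cells. With all cells 49 of 9357 genes were higher (0.524%) and 33 lower (0.353%) in labelled cells, and in 50 of these 82 genes 1 cell supplied 20% or more of a sum. Markers of other cell types moved with the label in this cluster. All 4 haemoglobin genes and 5 of 12 leukocyte genes were called higher, and 6 of 7 Schwann cell genes lower. All 6 mesothelial markers lay above 0 (median log2 ratio 1.35), with Upk3b and Rspo1 called higher, and the 3 of them tested without the rich cells lay below 0. Neutrophil genes were among the higher genes. Ngp counted 295 against 3 UMIs in the IgG library, Retnlg 228 against 3 and Stfa1 250 against 0, and none of these passed the filter on low counts once the rich cells were left out. Without the rich cells 22 of 8224 genes passed (0.268%), in 12 of which 1 cell supplied that share.

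Hhip had its largest called difference in cluster 18. It counted 474 UMIs in labelled and 19 in unlabelled IgG cells, or 122 and 43.1 CPM, and 142 and 5 in 5E1 cells, or 60.6 and 13.5. Its log2 ratio was 1.68 ± 0.26 (edgeR adjusted p = 1.1e-05) with all cells and 1.87 without the rich cells. Ptch1 was higher in labelled cells of the IgG library alone (85.7 against 38.6 CPM), stood at 33.3 against 40.5 in the 5E1 library, and did not pass (0.62 ± 0.27, adjusted p = 0.57). Nbl1 stood at 536 against 322 and 615 against 335 CPM (0.81 ± 0.12, adjusted p = 1.8e-06), and was called by DESeq2 as well (adjusted p = 0.026). Igfbp2, an insulin-like growth factor binding protein, rose by 1.10 ± 0.25, Cdkn1a, the cell cycle inhibitor p21, by 0.92 ± 0.20, Cxcl14, a chemokine, by 1.14 ± 0.23, and Adh1, an alcohol dehydrogenase that can oxidise retinol, by 0.73 ± 0.15. Wif1, a secreted Wnt inhibitor, counted 159 against 3 and 67 against 2 UMIs (2.51 ± 0.50), with 58% of the 67 from 1 cell.

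Apoe, a lipid carrier, stood at 995 against 1629 CPM in the IgG library and 902 against 1399 in the 5E1 library (-0.67 ± 0.10, edgeR adjusted p = 2.2e-06, DESeq2 adjusted p = 0.00022). Lum stood at 277 against 499 and 199 against 276 (-0.69 ± 0.12). Sfrp1, a secreted modulator of Wnt signalling, had -0.75 ± 0.17, from 82.4 against 186 in the IgG library and 125 against 151 in the 5E1 library. Rgs5, a pericyte gene, had -1.07 ± 0.22 and was not called without the rich cells. The metallothionein Mt2 (-1.11 ± 0.23) and the chemokine Ccl2 (-1.04 ± 0.23) were lower as well, but 66% and 97% of their unlabelled IgG sums came from 1 cell. Among the 12 adventitial markers, Pi16 was called higher and Lum lower with all cells, and Lum alone without the rich cells.

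**Figure D3:**
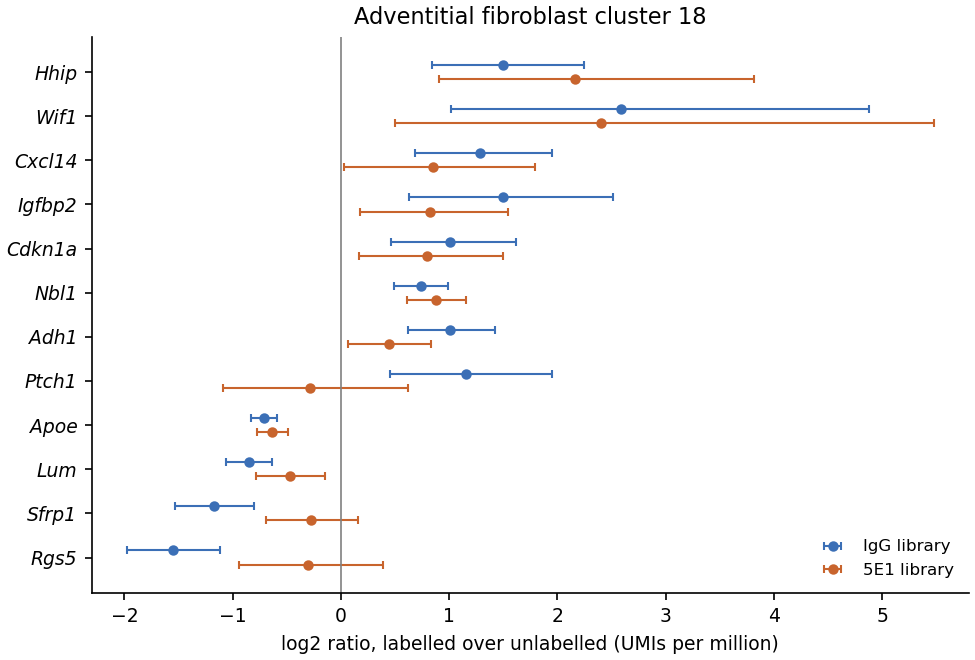
Log2 ratio of CPM in labelled over unlabelled cells of the adventitial cluster 18 (x axis) for 12 named genes (y axis), with 95% exact counting intervals (blue IgG, orange 5E1). Hhip lies above 0 in both libraries, Nbl1 at 0.74 and 0.88, and Apoe at -0.71 and -0.63, while Ptch1 is above 0 in the IgG library only.

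The difference in Hhip was not of 1 size across the clusters, though differences between clusters were not tested. In cluster 21, alveolar myofibroblasts with the highest Hhip of the fitted clusters, labelled cells stood at 305 against 233 CPM in the IgG library and 81.2 against 29.6 in the 5E1 library (log2 ratio 0.53 ± 0.13, edgeR adjusted p = 0.014, and 0.054 without the rich cells). In cluster 23 the values were 40.4 against 15.8 and 8.02 against 1.60 (1.52 ± 0.40, adjusted p = 0.057). In the dividing cluster 12 they were 46.0 against 27.2 in the IgG library, and 5 against 0 UMIs in the 5E1 library (0.81 ± 0.28, adjusted p = 0.61). In the matrix fibroblasts of cluster 19 Hhip did not pass. It stood at 212 against 218 CPM in the IgG library and at 9 against 8 UMIs in the 5E1 library (-0.04 ± 0.11, adjusted p = 1.0). In cluster 20 it was 187 against 193 and 17 against 6 UMIs (0.17 ± 0.29, adjusted p = 1.0).

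Clusters 14 and 16 held too few unlabelled cells for a fit. In the smooth muscle cluster 16, Hhip counted 607 UMIs in 200 labelled against 56 in 44 unlabelled IgG cells, or 575 against 213 CPM (log2 ratio 1.43, counting interval 1.04 to 1.85). In the 5E1 library it stood at 209 against 117 CPM (log2 ratio 0.84). In cluster 14, with 8 unlabelled IgG cells, it counted 75 against 6 UMIs, and all 5 of the 5E1 cells there had 0. Ptch1 was called in none of clusters 12, 18, 19, 20, 21 and 23. Its log2 ratio was 0.20 ± 0.14 in cluster 19, 0.13 ± 0.19 in cluster 21, 0.05 ± 0.22 in cluster 23 and -0.24 ± 0.19 in cluster 12. The interval of the Ptch1 ratio in the IgG library of cluster 19 was -0.02 to 0.45.

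**Figure D4:**
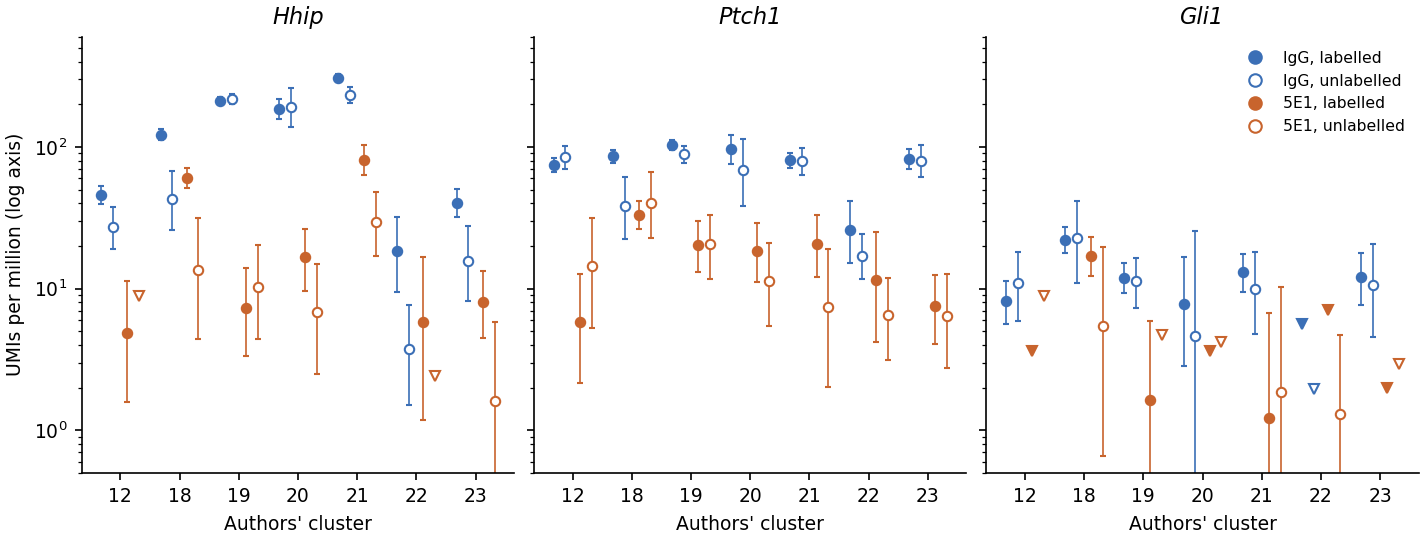
CPM of Hhip, Ptch1 and Gli1 (y axis, log scale) by the authors' cluster (x axis), in labelled (filled) and unlabelled (open) cells of the IgG (blue) and 5E1 (orange) libraries, with 95% exact counting intervals. Triangles stand at the upper bound where 0 UMIs were counted. Hhip separates filled from open points in clusters 18 and 21, at 122 against 43.1 and 305 against 233 in the IgG library, and not in cluster 19, at 212 against 218.

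In the matrix fibroblasts of cluster 19 (1018 labelled and 442 unlabelled IgG cells, 243 and 163 5E1 cells), labelled cells held less Mfap4, a marker of these cells, and more Col1a1, Meg3 and Egr1, with and without the rich cells. With all cells 40 of 9810 genes were higher (0.408%) and 7 lower (0.0714%), and without the rich cells 14 of 9315 passed (0.15%), 11 of them free of a dominant cell. Of 16 matrix fibroblast markers 13 lay below 0 and 12 were lower in both libraries, with 1 called. That gene, Mfap4, stood at 12614 against 15130 CPM in the IgG library and 12829 against 15669 in the 5E1 library (-0.27 ± 0.04, edgeR adjusted p = 7.0e-07, DESeq2 adjusted p = 2.0e-07). Hsd11b1, the enzyme that regenerates active glucocorticoid (-0.55 ± 0.09), Mgst1, a glutathione transferase (-0.40 ± 0.09), and Upk1b, a uroplakin (-0.69 ± 0.16), were lower too, Upk1b only with all cells.

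Of 14 alveolar myofibroblast markers tested in cluster 19, 13 lay above 0 (median 0.28), but only 7 were higher in both libraries and 1 was lower in both. Tgfbi alone was called. Tgfbi, a secreted matrix protein, went opposite ways in the 2 libraries: 103 against 45.0 CPM in the IgG library, and 66.1 against 92.1 in the 5E1 library, where 46% of the unlabelled sum came from 1 cell. Col1a1, the main fibrillar collagen, stood at 1474 against 1200 and 2494 against 2034 (0.30 ± 0.05, edgeR adjusted p = 7.7e-05, DESeq2 adjusted p = 0.034). Eln stood at 1899 against 1504 and 5248 against 4865 (0.23 ± 0.05), and Acta2, smooth muscle actin, at 735 against 617 and 520 against 429 (0.27 ± 0.07). Both were called with all cells only (adjusted p = 0.20 for Eln and 0.053 for Acta2 without the rich cells). Meg3, a maternally expressed non-coding RNA, stood at 162 against 92.6 and 323 against 225 (0.68 ± 0.10, adjusted p = 1.3e-06).

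Further genes higher in labelled cells of cluster 19, with and without the rich cells, were the immediate early factor Egr1 (0.45 ± 0.08), Cebpd (0.46 ± 0.09), Cav1, which encodes caveolin (0.49 ± 0.11), Htra1, a secreted protease (0.88 ± 0.21), and Prss35 (1.02 ± 0.21). All 18 immediate early genes tested there lay above 0, of which 4 were called with all cells and Egr1 alone without the rich cells. Gt(ROSA)26Sor counted 152 against 33 UMIs and 60 against 9. The steepest change, of the acute phase protein Saa3 (2.33 ± 0.18), rested on single cells, which held 53% and 95% of its labelled sums, and its log2 ratio was -0.03 in pairs matched on UMI total. Rbp4 (0.70 ± 0.18), a retinol carrier, and Cd74 (0.93 ± 0.13), of antigen-presenting cells, passed only with the rich cells in. Neither Hhip (above) nor Ptch1 (103 against 88.7 CPM in the IgG library and 20.4 against 20.5 in the 5E1 library) passed.

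Cluster 20, matrix fibroblasts rich in Scube2, held fewer cells (130 and 36 IgG cells, 180 and 165 5E1 cells). With all cells 3 genes were higher and 3 lower of 7682 (0.0391% each), and 1 cell supplied 20% or more of a sum in all 6. Without the rich cells 10 of 7174 passed (0.139%). Tgfbi counted 96 against 6 and 65 against 13 UMIs (2.11 ± 0.30, edgeR adjusted p = 0.028), with 46% of the 96 in 1 cell. Over all cells of cluster 20 with at least 3000 UMIs it stood at 58.6 CPM, against 50.0 in the B cells. Without the rich cells Acta2 (0.54) and Eln (0.27) were called higher and Mfap4 (-0.20) and Ces1d (-0.53) lower. With all cells these 4 had log2 ratios of 0.52, 0.36, -0.19 and -0.55 that did not pass. Mfap4 stood at 15585 against 16788 CPM in the IgG library and 16948 against 20211 in the 5E1 library. Ptch1 had 0.55 ± 0.31 (adjusted p = 1.0).

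In the alveolar myofibroblasts of clusters 21 and 23 Mfap4 lay above 0, the reverse of clusters 19 and 20, though the difference between clusters was not tested. Labelled cells of cluster 21 stood at 1583 against 1208 CPM in the IgG library and 1784 against 1659 in the 5E1 library (0.26 ± 0.07, edgeR adjusted p = 0.082, and 0.29 with adjusted p = 0.0063 without the rich cells). Those of cluster 23 stood at 402 against 235 and 317 against 263 (0.50 ± 0.09, adjusted p = 2.8e-05, not called without the rich cells). Over all cells with at least 3000 UMIs, Mfap4 stood at 1523 CPM in cluster 21. In clusters 12 and 23 it stood at 385 and 317, below the 457 of the B cells, and the part of free RNA there was not tested. In cluster 21, 19 of 8172 genes were higher (0.233%) and 7 lower (0.0857%). They included the adventitial collagen Col14a1 (0.80 ± 0.19) and the genes Lyz2 (1.15 ± 0.13), Cd74 (1.01 ± 0.16) and H2-Aa of myeloid and antigen-presenting cells. Mt1, a metallothionein, had 1.27 ± 0.20. Fscn1, an actin bundler, was lower (-1.11 ± 0.17), with 56% of its unlabelled IgG sum in 1 cell. Without the rich cells 2 of 7708 genes passed (0.0259%), Mfap4 and the cardiac actin gene Actc1. With all cells Actc1 counted 201 against 92 UMIs in the IgG library, 73% of the 92 in 1 cell, and 132 against 2 in the 5E1 library.

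In cluster 23, 7 of 9221 genes were higher (0.0759%) and 15 lower (0.163%), and none of 8782 passed the edgeR test without the rich cells (0%), where 411 had an unadjusted p under 0.05. DESeq2 called 0 with all cells, with 10 at an unadjusted p under 0.05. Gucy1a3, a subunit of the nitric oxide receptor, stood at 166 against 116 and 352 against 280 CPM (0.40 ± 0.10). Smpx, a small muscle protein (-0.76 ± 0.19), Sms, spermine synthase (-0.64 ± 0.16), and Cldn5, a tight junction protein of endothelium (-1.21 ± 0.20), were lower. Cd74 (1.51 ± 0.22) had 56% of its labelled 5E1 sum in 1 cell. In the dividing cluster 12, 10 of 8565 genes were higher (0.117%) and 2 lower (0.0234%), with the leukocyte genes Cd74 (2.33 ± 0.21) and Lyz2 (1.33 ± 0.13) among the higher, and none of 7888 passed the edgeR test without the rich cells (0%), where 294 had an unadjusted p under 0.05. DESeq2 called 1 gene, Lyz2, with all cells. Of the 20 G2 and M genes 18 lay below 0 in cluster 12 (median -0.16) with none called, and 15 did without the rich cells (median -0.08). In cluster 19 the list lay the other way, with 18 of 20 above 0 (median 0.14), 13 higher in both libraries and none called, and in cluster 18 it lay below 0 for 16 of 19 (median -0.29) with none called.

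**Figure D5:**
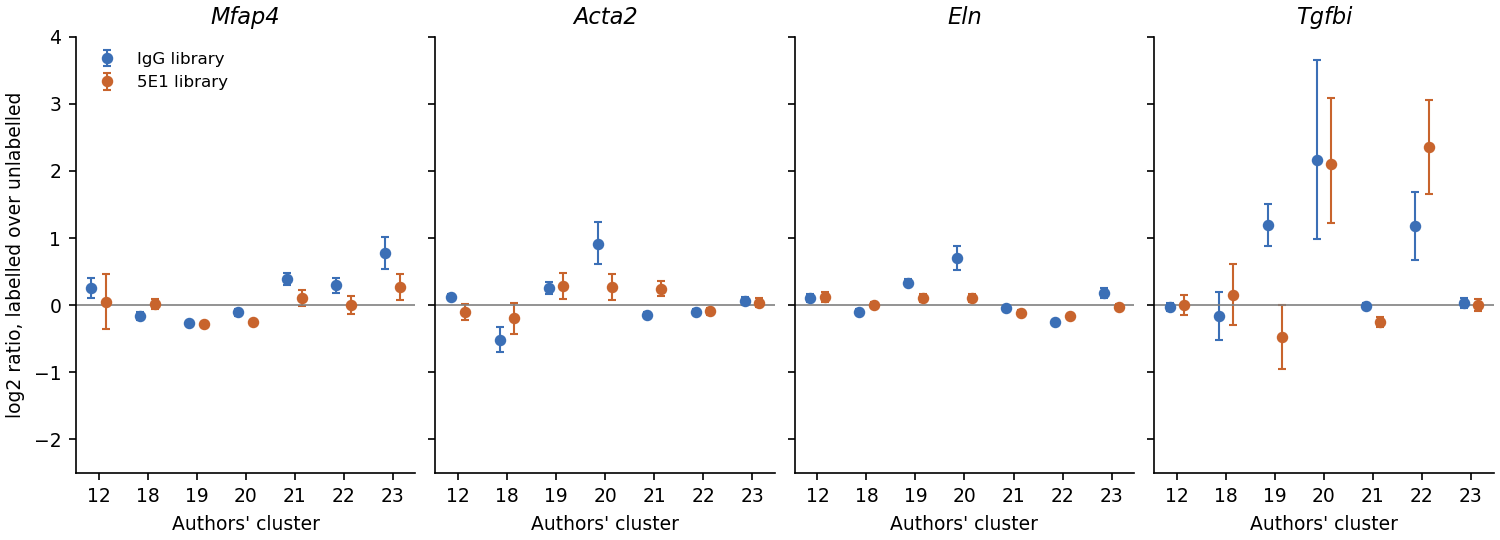
Log2 ratio of CPM in labelled over unlabelled cells (y axis) of Mfap4, Acta2, Eln and Tgfbi by the authors' cluster (x axis), in the IgG (blue) and 5E1 (orange) libraries, with 95% exact counting intervals. Mfap4 lies below 0 in clusters 19 and 20 and above 0 in cluster 23 in both libraries, and Tgfbi in cluster 19 lies at 1.19 and -0.48.

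Cluster 22 had the lowest labelled share of the 7 fitted clusters (119 against 380 unlabelled in the IgG library and 83 against 290 in the 5E1 library). With all cells 32 of 8367 genes were higher (0.382%) and 29 lower (0.347%), and without the rich cells 8 of 7925 passed (0.101%). Tgfbi was higher with and without the rich cells, at 91.9 against 40.6 CPM in the IgG library and 96.0 against 18.8 in the 5E1 library (1.63 ± 0.22, edgeR adjusted p = 2.3e-10). Over all cells of cluster 22 past the depth limit it stood at 45.7 CPM, against 50.0 in the B cells. Among thinned IgG cells, 10.5% of labelled and 9.5% of unlabelled cells held a Tgfbi UMI, against 14.1% of the B cells. In the 5E1 library these shares were 10.4% and 3.99%, against 6.49% of the B cells. The part of free RNA in the Tgfbi difference was not tested. Also higher with and without the rich cells was Sbspon, a matrix protein, at 26 against 3 and 19 against 6 UMIs (3.80 ± 0.48). Agt, angiotensinogen, counted 16 against 5 and 12 against 5 UMIs (2.97 ± 0.54). Igfbp5 stood at 596 against 422 and 828 against 458 CPM (0.67 ± 0.08), Sparcl1, a matricellular protein, at 291 against 166 and 348 against 189 (0.83 ± 0.12), Rgs2 at 224 against 96.1 and 292 against 181 (0.93 ± 0.13), and Actc1, cardiac actin, at 847 against 634 and 928 against 719 (0.38 ± 0.08). Fbln5, which organises elastic fibres, was lower, at 392 against 563 and 478 against 730 (-0.58 ± 0.09).

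The elastin transcript itself was lower in labelled cells of cluster 22 with all cells: Eln stood at 19877 against 23752 and 24464 against 27261 CPM (-0.22 ± 0.04, edgeR adjusted p = 1.0e-06, and 0.072 without the rich cells). Of the Hedgehog lists, Osr1 was called lower in cluster 22, at 213 against 370 CPM in the IgG library and 307 against 364 in the 5E1 library (-0.53 ± 0.11), and Gas1 higher, at 32 against 55 UMIs, or 49.0 against 29.4 CPM, and 86.4 against 38.3 CPM (0.96 ± 0.24). Neither passed without the rich cells (edgeR adjusted p = 0.48 for both). Ifitm1 (0.97 ± 0.15), the transcription factor Tbx2 (0.85 ± 0.23) and, lower, Tmem158 (-0.93 ± 0.21) and the neutrophil gene S100a9 (-1.57 ± 0.16) were called with all cells only. Labelled cells of this cluster were deeper in the 5E1 library (median 5477 against 4776 UMIs), and in pairs matched on UMI total 18 genes were called. The part of free reporter RNA in which cells of cluster 22 were labelled was not tested.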

How the data were processed

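Whole-lung single-cell RNA-seq of 2 pooled samples was used. The deposited matrices hold UMI counts per gene and barcode. They were made with Cell Ranger 3.1.1 on mm10 per the submitters' processing notes, while the matrix header gives software version 3.0.0. The cluster of each kept cell came from the authors' iCellR table, per the file headers, whose column names are shifted against their values. The sources used here do not state whether counting used strand. No doublet caller was run and all cells kept by the authors entered unless stated.

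Labelled and unlabelled cells were paired within cluster and library on log2 total UMIs (largest difference 0.25), and UMIs were summed per library and label. edgeR 4.0.16 (R 4.3.3; TMM scaling, filterByExpr, quasi-likelihood test, library as block, Benjamini-Hochberg adjustment over all genes tested, threshold 0.05) was fitted to the 4 sums, for the matched cells and, without matching, within each of 7 clusters with at least 30 labelled and 30 unlabelled cells per library. The block pairs sums taken from the same library and pool. Reporter features stayed out of the tests. Which of the 3 pups of a pool each cell came from is not recorded, so p-values measure no spread between pups. They rest on the spread between these sums, which edgeR moderates across genes. Each SE is the absolute log2 ratio divided by the square root of the test's F value. Intervals of ratios within a library are exact conditional binomial ones and cover counting error only. On counts simulated for the matched comparison, 31 of 100 genes changed 1.5-fold and 90 of 100 changed 2-fold were recovered among 12294 tested, with 3 unchanged genes called. The simulated spread between sums (dispersion) was set above the common value of 0.00079 fitted to the data. Only genes with at least 200 UMIs were changed, and no difference that rests on 1 cell was simulated. The recovery and the 3 calls therefore need not hold for these data. Python 3.11.15, scipy 1.17.1 and matplotlib 3.10.9 were used, and DESeq2 1.42.0 as an alternative. Gene positions are from GENCODE on GRCm38.

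The members and the gene lists were chosen with earlier results of these data known. Genes named are Hedgehog and PDGF genes, members of the lists that passed, the 12 highest and 12 lowest in the matched cells and the 4 highest and 4 lowest per cluster with at least 200 UMIs and 50 CPM, leaving out mitochondrial, ribosomal, haemoglobin, immunoglobulin, unnamed and sex-linked genes. Mbp, Hba-a1, Thumpd3, Stfa1, Pi16 and H2-Aa, and genes followed from 1 cluster to another, were chosen after their values were seen. A gene withheld for evaluation is not reported here.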

Additional observations from a re-analysis of the deposited data

Results flagged for a closer look

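Tgfbi in the matrix fibroblasts of cluster 19 had a log2 ratio of labelled over unlabelled cells of 1.19 in the IgG library and -0.48 in the 5E1 library, opposite directions in the 2 libraries. The difference itself was not tested, and 46% of the unlabelled 5E1 sum of Tgfbi came from 1 cell. In both libraries the shares of thinned cells with a Tgfbi UMI lay below that of the B cells.

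Cells with 2 or more reporter UMIs also occurred outside the 9 mesenchymal clusters, at shares whose intervals lay above those of the B cells of the same library. In cluster 17 the share was 80.62% in the IgG library and 64.86% in the 5E1 library. In cluster 10 it was 42.33% and 41.41%, in cluster 11 it was 20.42% and 24.29%, and in cluster 9 of the 5E1 library it was 24.47%. These shares were not measured at like depth: labelled cells held medians of 18178 and 21335 UMIs in cluster 11 and 27518 and 30833 in cluster 10, against 4797 and 5477 in the smooth muscle cluster 22.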

How the results depend on the processing

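Against 72 genes called in the matched cells, DESeq2 called 8, no filter on low counts 9, labelling from 3 UMIs 113 and from 5 UMIs 168, cells from 1500 UMIs 148, all cells without matching 1254, cells thinned to 3000 UMIs 11 and cells with Xist and no Y-linked UMI 29. Pairs matched on total UMIs gave 33 in cluster 18, 17 in 19, 12 in 21, 18 in 22 and 11 in 23. DESeq2 gave 1 in cluster 12, 11 in 18, 7 in 19, 0 in 20, 21 and 23 and 3 in 22. At an unadjusted p under 0.05 it had 16 in 20, 12 in 21 and 10 in 23. Labelling from 3 UMIs gave 19 in cluster 12, 19 in 20 and 3 in 23, labelling from 5 UMIs 2 in 23, and no filter 32 in 20. Leaving out the rich cells gave 0 in cluster 12, 22 in 18, 14 in 19, 10 in 20, 2 in 21, 8 in 22 and 0 in 23. That setting, and 5 UMIs within clusters, were chosen after seeing the data.

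Without the replicate block, which pairs the sums of a library, 2 genes were called in the matched cells, 0 in clusters 12, 19, 20, 21 and 23, 20 in cluster 18 and 3 in cluster 22. Of 113 results compared, 83 were then no longer past the threshold and none turned.

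These log2 ratios changed sign. For Gli1 they were 0.27 by DESeq2, 0.047 from 1500 UMIs, 0.70 unmatched, and 0.24 without cells with 2 or more G2 and M UMIs, with -0.11 to 1.01 on leaving out 1 library. Osr1 had -0.18 to 0.046 on leaving out 1 library. Smo had -0.030 thinned and -0.0054 without the G2 and M cells. Pdgfrb had -0.30 unmatched, -0.022 thinned, -0.029 without the rich cells and -0.0059 in Xist cells. Unmatched, Btg2 had -0.083, Mustn1 -0.20, Fos -0.24, Birc5 0.0044, Top2a 0.0093, Sftpc 0.28 and Lum 1.01. In Xist cells Pf4 had 0.29 and Ctla2a 0.41. Birc5 had 0.13 without the G2 and M cells. Without the rich cells Cd9 had 0.14, Sftpc 0.0025, Cd74 -0.11 in cluster 19 and -0.028 in 23, Lyz2 -0.082 in 21 and Ptch1 -0.058 in 23. Matched pairs gave Saa3 -0.027, Cd74 -0.72 and Hhip 0.037 in cluster 19 and Ptch1 -0.12 in 23. Leaving out 1 library gave Ptch1 -0.28 to 1.15 in cluster 18 and -0.0064 to 0.21 in 19, Tgfbi -0.48 to 1.19 in 19 and Hhip -0.045 to 1.28 in 20, the lowest without the IgG library except for Hhip, where it was without the 5E1 library. Except for these settings' own construction, the cause was not tested.

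Leaving out 1 library leaves no residual degree of freedom and gives values with no test. Leaving out every cell with 3 or more UMIs of another type's list was not run, because it left 0 cells. The fits rest on 2 libraries and 1 residual degree of freedom, and low counts limit Gli1 and the 5E1 values of Hhip and Ptch1.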
